A study of Mus musculus with 12 samples.

Results

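Hox cluster genes encode homeodomain transcription factors that lie in 4 genomic clusters, HoxA to HoxD, and carry a paralogue number that follows their position along the cluster. They were taken here as every gene whose whole symbol, looked up by Ensembl identifier, is Hoxa, Hoxb, Hoxc or Hoxd followed by digits. This gave 39 of the 47729 genes in the deposited count table. HoxA has 11 members on chromosome 6, HoxB 10 on chromosome 11, HoxC 9 on chromosome 15 and HoxD 9 on chromosome 2. RNA was sequenced in bulk from mesenchymal cells sorted out of healthy uteri of cycling female Pdgfrb-BAC-eGFP mice. In this strain a bacterial artificial chromosome makes green fluorescent protein (GFP) where the receptor gene Pdgfrb is active. Both groups carry this reporter and differ in the brightness gate. GFPtotal cells (Naive in the sample titles) hold the bright perivascular cells together with the dim stromal fibroblasts, in proportions not given in the sources used here. GFPlow cells (Stromal in the titles) are the dim fraction alone. There are 6 libraries of each, no age or cycle stage is given for a library, and libraries are not tied to single mice by any label. The p-values therefore refer to the spread among these 12 libraries, which may be technical in part.

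In the embryo, Hox genes are switched on in the order of their position, so that genes at one end of each cluster act in the head and neck region and paralogues 9 to 13 act in the posterior trunk, the limbs and the urogenital tract. In the mouse Müllerian duct, which forms the female reproductive tract, Hoxa9, Hoxa10, Hoxa11 and Hoxa13 are known for successive domains running through oviduct, uterus, cervix and upper vagina. Hoxa10 and Hoxa11 are needed in the mouse uterine stroma for implantation and decidualization. Hox proteins bind short AT-rich DNA sites through the homeodomain, often together with Pbx and Meis proteins, the TALE homeodomain cofactors.

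The 7 members with the highest levels in both groups were Hoxa9, Hoxa10, Hoxa11, Hoxd8, Hoxd9, Hoxd10 and Hoxd11. For some of them the coding sequence around the DNA-contacting helix of the homeodomain is shown because reads of related genes are told apart by the bases that differ between them. Each window has 60 bases in the direction of transcription, taken from GENCODE M21 transcripts on GRCm38, and capitals mark the 18 bases that code for 6 residues of the recognition helix found in every member.
Hoxa10: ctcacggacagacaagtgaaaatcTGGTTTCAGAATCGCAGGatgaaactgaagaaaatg
Hoxd10: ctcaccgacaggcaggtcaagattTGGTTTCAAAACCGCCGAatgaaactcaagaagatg
Hoxa11: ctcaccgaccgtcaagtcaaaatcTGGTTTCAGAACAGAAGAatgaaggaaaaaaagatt
Hoxd11: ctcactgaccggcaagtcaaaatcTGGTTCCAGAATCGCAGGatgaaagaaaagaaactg
Hoxd8: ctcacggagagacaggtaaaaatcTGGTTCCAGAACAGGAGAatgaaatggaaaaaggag
Hoxa10 and Hoxd10 differed at 12 of the 60 bases, and Hoxa11 and Hoxd11 at 12. Over all members, the 42 pairs with the same paralogue number differed at a median of 10 bases (2 to 17), and the 699 other pairs at a median of 16 (4 to 26). Among the 90 pairs of tested members without shared exons, the longest identical run of exonic bases was 28, between Hoxd9 and Hoxd11. Over all 739 pairs without shared exons it was 52, between Hoxa6 and Hoxb4, and whether reads were exchanged between them was not tested.

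The counts came from exons without use of strand. Exonic bases were shared with another gene by 16 of the 39 members, and 10 shared at least 10% of theirs. The largest shares were 62.85% in Hoxd3, 52.93% in Hoxb3, 52.31% in Hoxd4 and 34.98% in Hoxa11, where the partner is the antisense gene Hoxa11os. Cluster genes whose exons are wholly shared, such as Mir196b within Hoxa9 and Gm28308, which overlaps Hoxa2 and Hoxa3, had 0 counts in all libraries. Hoxa9, Hoxa2 and Hoxa3 themselves had counts. Fragments on shared bases thus appear to be left uncounted, which was not tested on reads. Levels per full exon length, used below, may therefore be too low for Hoxd3, Hoxb3, Hoxd4 and Hoxa11. In Hoxd11 the share was 10.8%, and in Hoxa10, Hoxd8 and Hoxd9 it was 0.

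Total counts ran from 12631266 to 14950639 in GFPtotal and from 14339804 to 18425596 in GFPlow libraries, of which the Hox members took 2174 to 5377 in GFPtotal and 3791 to 7564 in GFPlow. Summed markers of pericytes (9 genes, led by Rgs5 and Abcc9) lay between 923 and 1626 CPM (counts scaled to depth with TMM factors) in GFPtotal libraries and between 8.87 and 19.9 CPM in GFPlow libraries, and 7 of the 7 tested markers were higher in GFPtotal. Fibroblast markers summed to between 23183 and 39886 CPM in GFPtotal libraries and between 15285 and 23088 CPM in GFPlow libraries. The sums did not overlap and were higher in GFPtotal, where 1 of the 7 tested markers was called higher and 0 lower. Col1a1, Col1a2 and Col3a1 gave most of these sums, and of the single markers Col3a1 alone did not overlap between the groups. Dcn, for example, lay at 2219 to 2467 CPM in GFPtotal, against 906 to 2471 CPM in GFPlow. Epithelial markers (8 genes) summed to at most 12.9 CPM, leukocyte markers (7) to at most 17.7 CPM and endothelial markers (7) to at most 60.02 CPM in any library. Among the endothelial markers, Pecam1 was at no more than 1.13 CPM and Cldn5 at 0. Cdh5 lay at 2.86 to 7.66 CPM in GFPtotal, against 5.05 to 39.6 CPM in GFPlow. Kdr lay at 3.01 to 23.96 CPM in GFPtotal, against 10.9 to 32.5 CPM in GFPlow. Other markers reached higher values in GFPtotal. Emcn lay at 7.27 to 30.9 CPM there, against 1.45 to 9.86 CPM in GFPlow. Tek lay at 3.24 to 17.5 CPM in GFPtotal, against 1.85 to 9.61 CPM in GFPlow. Vwf reached 3.93 CPM in GFPtotal and 0.946 CPM in GFPlow. Of the 4 tested endothelial markers, 1 was called lower and 0 higher in GFPtotal. Smooth muscle markers had sums of 186 to 389 CPM across GFPtotal, against 45.7 to 94.0 CPM across GFPlow, and 3 of the 6 tested markers were called higher in GFPtotal. The file header of GFPlow 6 names an alignment with the code N8 in place of S6. Its pericyte sum was 18.9 CPM, inside the GFPlow range and below every GFPtotal library, and the results whose call or size it shifts are given with both values. GFPtotal 3, 4 and 5 stood apart from the other libraries on the first principal component. They had fibroblast sums of 23183 to 27192 CPM, against 37429 to 39886 CPM in GFPtotal 1, 2 and 6, and smooth muscle sums of 293 to 389 CPM, against 186 to 226 CPM in the other 3 GFPtotal libraries. Their sums were also higher, without overlap, for pericyte markers (1378 to 1626 CPM, against 923 to 1241 CPM in GFPtotal 1, 2 and 6), epithelial markers (7.86 to 12.9 CPM, against at most 5.72 CPM) and leukocyte markers (6.59 to 17.7 CPM, against 3.72 to 5.52 CPM). Mitochondrial genes took 32.4% to 40.5% of their counts, against 45.3% to 49.0% in GFPtotal 1, 2 and 6. GFPlow libraries lay at 35.1% to 45.7%.

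At least 1 count in each of the 12 libraries was found for 15 members, and 14 members passed the filter on low counts and were tested. Of the 25 others, 20 had some counts, with no more than 1.30 CPM as the mean of a group and 5.09 CPM in a single library. No count in 12 libraries was found for Hoxb1, Hoxb9, Hoxb13, Hoxc12 and Hoxc13, which allows up to 0.0357 CPM over the 6 GFPtotal libraries and 0.0312 CPM over the 6 GFPlow libraries, at 3 counts per group and counting error only. Tested members were 4 of 11 in HoxA (Hoxa5, Hoxa9, Hoxa10, Hoxa11), 1 of 10 in HoxB (Hoxb6), 3 of 9 in HoxC (Hoxc6, Hoxc8, Hoxc10) and 6 of 9 in HoxD (Hoxd3, Hoxd4, Hoxd8, Hoxd9, Hoxd10, Hoxd11). By paralogue number, these were 1 of 8 members with numbers 1 to 3, 6 of 15 with numbers 4 to 8, and 7 of 16 with numbers 9 to 13.

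Levels between genes were compared as FPKM, the CPM divided by the exon length in kilobases. The highest were those of 4 adjacent HoxD genes, Hoxd8, Hoxd9, Hoxd10 and Hoxd11, genes of the posterior trunk and limbs in the mouse embryo, which lie side by side from position 74679557 to 74707933 of chromosome 2 (GRCm38). Hoxd11 averaged 17.5 ± 1.93 FPKM in GFPtotal and 25.2 ± 7.19 FPKM in GFPlow (SD, n = 6 each, here and below). Hoxd10 averaged 16.6 ± 2.73 FPKM in GFPtotal and 18.6 ± 7.89 FPKM in GFPlow. For Hoxd8 the means were 15.9 ± 5.37 FPKM in GFPtotal and 19.6 ± 5.83 FPKM in GFPlow. Hoxd9 was lower than these 3 in GFPtotal, at 8.44 ± 3.19 FPKM, and had 14.6 ± 6.70 FPKM in GFPlow. On the far side of Hoxd11, Hoxd12 had 16 counts, all in GFPtotal 6, and Hoxd13, a gene of digits and external genitalia, had 6 counts in GFPtotal and 23 in GFPlow. On the other side, Hoxd4 and Hoxd3 stayed below 1 FPKM as group means and Hoxd1 had 4 counts in GFPtotal and 3 in GFPlow. The FPKM of Hoxd4 and Hoxd3 may be too low, because 52.31% and 62.85% of their exonic bases are shared.

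The uterine HoxA genes came next. Hoxa9, the oviduct-domain gene of the Müllerian series, averaged 8.01 ± 3.82 FPKM in GFPtotal and 4.802 ± 2.50 FPKM in GFPlow. Hoxa10, the uterine-domain gene, averaged 7.29 ± 3.96 FPKM in GFPtotal and 6.78 ± 2.23 FPKM in GFPlow. Hoxa11, which is needed for female fertility in the mouse, averaged 4.25 ± 1.92 FPKM in GFPtotal and 4.46 ± 2.18 FPKM in GFPlow. Hoxa13, which marks the caudal end of the tract, was near the lower limit of detection, with 47 counts in GFPtotal and 65 in GFPlow, and a mean of 0.24 FPKM in GFPtotal and 0.253 FPKM in GFPlow. Hoxa5, an anterior HoxA gene with roles in lung and axial skeleton, averaged 3.68 ± 1.69 FPKM in GFPtotal and 1.58 ± 0.796 FPKM in GFPlow.

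Together the 7 highest members held 80.5% to 89.1% of the summed Hox FPKM of a GFPtotal library and 86.8% to 94.3% of that of a GFPlow library. Neighbours in the order of means mostly overlapped in their library ranges: among the first 14 places in GFPtotal the ranges of Hoxc10 (1.91 to 4.75 FPKM) and the next gene, Hoxc6 (0.471 to 1.38 FPKM), were the one adjacent pair that did not overlap. In GFPlow no adjacent pair among the first 14 was separated. Within a paralogue number the HoxD gene was mostly above its HoxA counterpart. The Hoxd11 to Hoxa11 ratio of FPKM had a median of 4.61 in GFPtotal (2.44 to 6.49) and 5.06 in GFPlow (3.64 to 18.6), and the Hoxd10 to Hoxa10 ratio a median of 2.52 in GFPtotal (1.16 to 4.98) and 3.07 in GFPlow (1.19 to 3.68). Both ratios were above 1 in 12 of 12 libraries. The Hoxd11 to Hoxa11 ratio may be too high, because 34.98% of the exonic bases of Hoxa11 are shared, against 10.8% in Hoxd11. The Hoxd9 to Hoxa9 ratio was 0.553 to 2.38 in GFPtotal, with a median of 1.01, and 1.53 to 4.87 in GFPlow, with a median of 3.21, and it was above 1 in 3 of 6 GFPtotal and 6 of 6 GFPlow libraries.

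**Figure D1:**
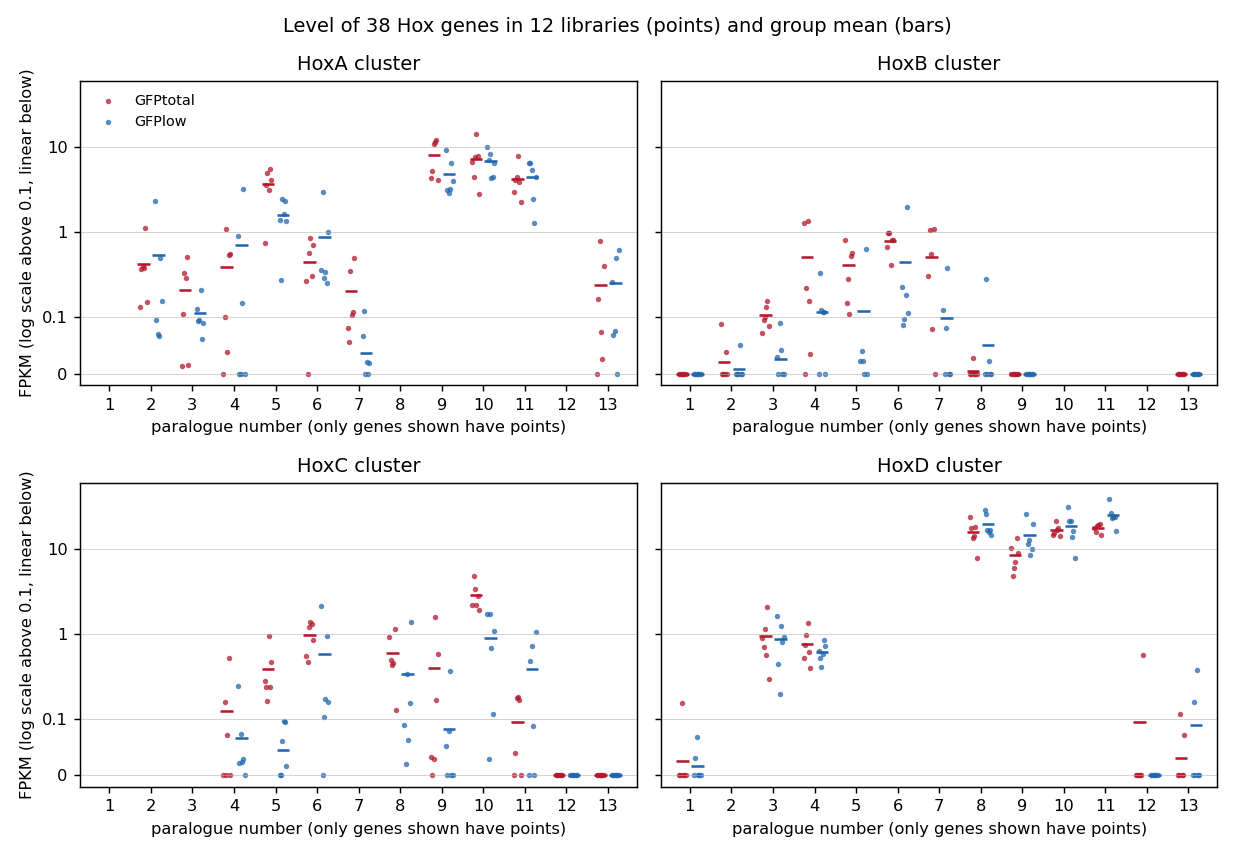
Level of 38 Hox genes in FPKM (log scale above 0.1, linear below) against its paralogue number, 1 panel per cluster, with 6 GFPtotal libraries (red points) left of 6 GFPlow libraries (blue points) and bars for group means. Hoxd8 to Hoxd11 form the highest block with group means of 8.44 to 25.2 FPKM, Hoxa9 to Hoxa11 follow at 4.25 to 8.01 FPKM, and most other members lie below 1 FPKM.

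As shares of the summed Hox FPKM, HoxD made up 65.3% ± 6.81 in GFPtotal and 77.2% ± 2.904 in GFPlow, and HoxA 26.4% ± 6.94 in GFPtotal and 19.6% ± 1.97 in GFPlow. HoxC made up 5.85% ± 1.04 in GFPtotal and 2.35% ± 1.39 in GFPlow, and HoxB 2.52% ± 0.58 in GFPtotal and 0.919% ± 1.07 in GFPlow. The library ranges of the groups overlapped for every cluster: for HoxC by GFPlow 6 alone (4.48%, against a GFPtotal minimum of 4.41%), and for HoxB by GFPlow 5 alone (3.02%, where the other GFPlow libraries had at most 1.01% and GFPtotal at least 1.97%). The HoxA share was 28.5% to 36.3% in GFPtotal 3, 4 and 5 and 16.9% to 22.97% in GFPtotal 1, 2 and 6, beside 16.3% to 22.3% in GFPlow. Paralogues 9 to 13 held 70.6% ± 4.28 of the Hox FPKM in GFPtotal and 73.7% ± 3.45 in GFPlow, paralogues 4 to 8 held 27.6% ± 4.11 in GFPtotal and 24.9% ± 3.54 in GFPlow, and paralogues 1 to 3 held 1.80% ± 0.951 in GFPtotal and 1.43% ± 0.783 in GFPlow. These shares are descriptions and were not tested. Summed over all members, Hox FPKM was 67.9 to 112 in GFPtotal and 78.9 to 161 in GFPlow.

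**Figure D2:**
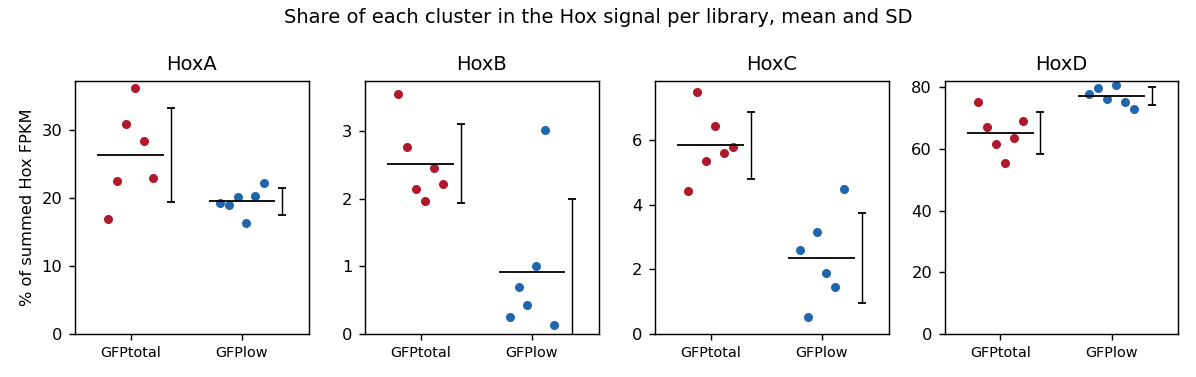
Share of each cluster in the summed Hox FPKM of a library, in percent, with GFPtotal (red, left) and GFPlow (blue, right), each point 1 library, lines and bars the mean and SD. HoxD averaged 65.3% in GFPtotal and 77.2% in GFPlow, and HoxB and HoxC had higher means in GFPtotal with 1 overlapping GFPlow library each.

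The comparison of GFPtotal with GFPlow asks which transcripts belong to the GFP-high perivascular cells. No tested Hox gene passed in either direction: 0 of 14 tested members were called higher and 0 lower in GFPtotal (edgeR quasi-likelihood F test, Benjamini-Hochberg adjusted over 14523 genes, threshold 0.05). Over all tested genes 4.55% were called higher, 0.854% lower and 5.41% in either direction. At an unadjusted p below 0.05 there were 4 of 14 Hox members, 2 higher and 2 lower, beside 19.9% of all tested genes. The same 4 genes stood below that limit with DESeq2's Wald test, which called 0, while limma-voom called 1 (Hoxc10). The median log2 fold change of the tested members was 0.23, with 9 above 0 and 5 below, and that of all tested genes was −0.0006. Without GFPtotal 3, 4 and 5 the Hox median was −0.32, over 18 members. Groups that did not overlap in CPM were found for 1 tested member, Hoxc10, beside 3.66% of all tested genes. In a bulk sample, fewer cells of a type and less RNA per cell cannot be told apart.

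Hoxd11 had 61.7 CPM in the lowest, a median of 76.4 CPM and 82.0 CPM in the highest GFPtotal library, against 69.2, 100.1 and 161 CPM in GFPlow. All GFPlow libraries except GFPlow 6 were above every GFPtotal library, and GFPlow 6 lay inside the GFPtotal range. The log2 fold change was −0.53 (SE 0.18, 95% interval −0.90 to −0.15, adjusted p = 0.103 by edgeR). Without GFPlow 6, the library with the differing header code, it was −0.63 and passed the threshold (adjusted p = 0.0471 by edgeR).

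Hoxd9 had 10.1, 17.2 and 28.9 CPM as lowest, median and highest GFPtotal library, against 17.9, 25.8 and 55.1 CPM in GFPlow. The groups overlapped, with GFPlow 1 and 6 above every GFPtotal library and GFPtotal 2, 3 and 4 below every GFPlow library. Hoxd9 had a fold change of −0.79 on the log2 scale (SE 0.31, adjusted p = 0.157 by edgeR). Hoxd8 and Hoxd10, the other abundant HoxD genes, had fold changes of −0.31 (SE 0.25) and −0.16 (SE 0.26) with adjusted p of 0.543 and 0.796 by edgeR. Hoxd8 ran from 21.6 to 65.4 CPM over the GFPtotal libraries and from 40.0 to 78.2 CPM over the GFPlow libraries. Hoxd10 ran from 25.4 to 39.1 CPM over GFPtotal and from 14.2 to 56.1 CPM over GFPlow, so in Hoxd10 the GFPtotal range lay wholly within the GFPlow range. Without GFPlow 6 the Hoxd10 fold change was −0.32 (adjusted p = 0.503 by edgeR). GFPlow 1 was the highest of the 12 libraries for each of these 4 HoxD genes, and its summed Hox FPKM of 161 was also the highest.

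Hoxc10, a lumbar and hindlimb gene of the HoxC cluster, had 3.65, 4.72 and 9.07 CPM as lowest, median and highest GFPtotal library, against 0.0565, 1.68 and 3.29 CPM in GFPlow. Every GFPtotal library was above every GFPlow library, with a gap of 3.29 to 3.65 CPM between the groups. The log2 fold change was 1.68 (SE 0.67, 95% interval 0.27 to 3.09, adjusted p = 0.165 by edgeR), and limma-voom gave 2.48 with an adjusted p of 0.0475. Without GFPtotal 3, 4 and 5 the edgeR value was 1.70 (adjusted p = 0.432). GFPlow 2 and 5 had 1 and 3 counts, while the other GFPlow libraries had 22 to 52 and the GFPtotal libraries 41 to 112. Hoxc5, which shares 5.374% of its exonic bases with Hoxc10, was not tested because of its low counts and also did not overlap between the groups, with 7 to 48 counts in GFPtotal libraries and 0 to 5 in GFPlow libraries (0.50 to 2.95 CPM in GFPtotal, against 0 to 0.295 CPM in GFPlow).

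**Figure D3:**
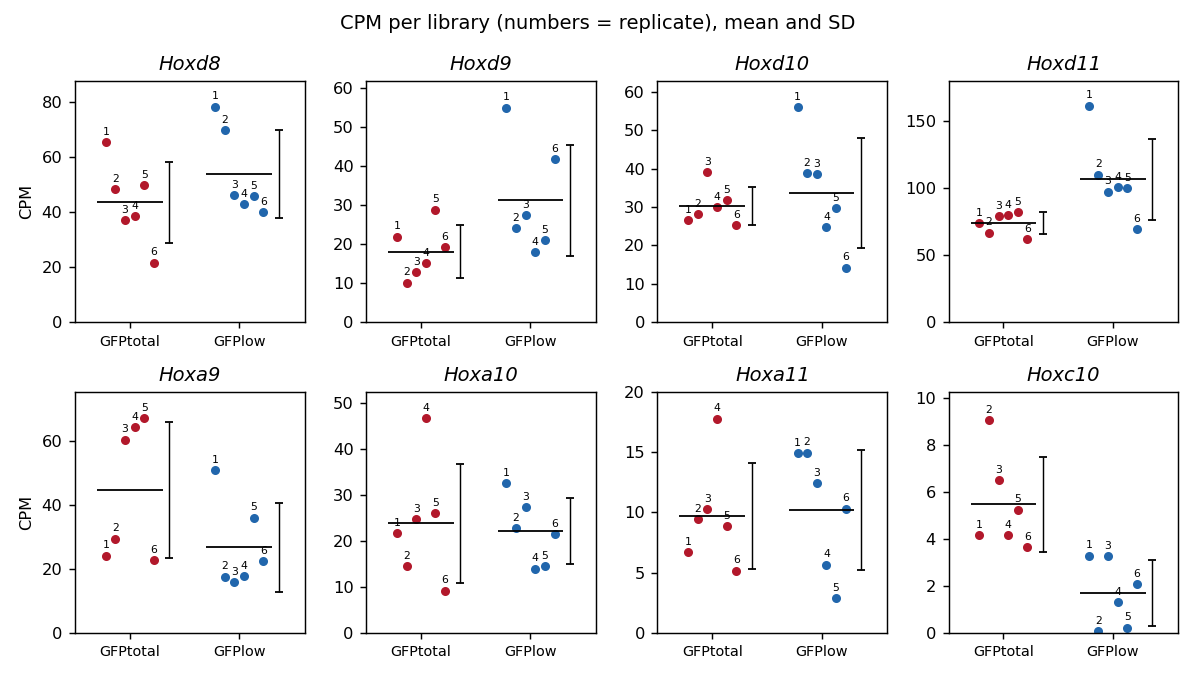
CPM of 8 Hox genes in each library (numbers are replicate numbers), GFPtotal left in red and GFPlow right in blue, with group mean and SD. Hoxd11 in 5 of 6 GFPlow libraries lies above all GFPtotal libraries (61.7 to 82.0 CPM), Hoxc10 separates the groups fully, and Hoxa9 is high in GFPtotal 3, 4 and 5.

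Hoxa9 had 22.7, 45.0 and 67.1 CPM as lowest, median and highest GFPtotal library, against 15.9, 20.2 and 51.0 CPM in GFPlow. The GFPtotal values formed separate levels, with GFPtotal 3, 4 and 5 at 60.5 to 67.1 CPM and GFPtotal 1, 2 and 6 at 22.7 to 29.5 CPM, while GFPlow 1 and 5 had 51.0 and 36.0 CPM and the other GFPlow libraries 15.9 to 22.5 CPM. The log2 fold change was 0.74 (SE 0.36, adjusted p = 0.262 by edgeR), and −0.10 without GFPtotal 3, 4 and 5. The marker sums of 5 lists (fibroblast, smooth muscle, pericyte, epithelium and leukocyte) and the mitochondrial share moved with the same 3 libraries, as given above, and their part in the Hoxa9 values was not tested.

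Hoxa10 had 9.17, 23.3 and 46.8 CPM as lowest, median and highest GFPtotal library, against 13.99, 22.2 and 32.7 CPM in GFPlow. The GFPlow range lay wholly within the GFPtotal range, whose top library was GFPtotal 4. GFPtotal 3, 4 and 5 had 24.7 to 46.8 CPM and GFPtotal 1, 2 and 6 had 9.17 to 21.8 CPM. Its log2 fold change was 0.11 (SE 0.33, 95% interval −0.60 to 0.81, adjusted p = 0.904 by edgeR), and −0.57 without GFPtotal 3, 4 and 5. Hoxa11 ran from 5.17 to 17.8 CPM over GFPtotal and from 2.91 to 15.0 CPM over GFPlow, with a log2 fold change of −0.07 (SE 0.40, 95% interval −0.91 to 0.77, adjusted p = 0.948 by edgeR). Hoxa13 was not tested and ran from 0 to 1.93 CPM in GFPtotal and from 0 to 1.52 CPM in GFPlow.

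Hoxa5 had 1.39, 7.28 and 10.4 CPM as lowest, median and highest GFPtotal library, against 0.509, 2.83 and 4.65 CPM in GFPlow. GFPtotal 1 fell among the GFPlow libraries and the other GFPtotal libraries were above all of them. Its log2 fold change was 1.22 (SE 0.51, 95% interval 0.14 to 2.304, adjusted p = 0.184 by edgeR), and it was 0.83 without GFPtotal 3, 4 and 5 (adjusted p = 0.691 by edgeR).

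The remaining tested members were low. Hoxb6, the one tested HoxB gene, lay between 0.798 and 1.94 CPM in GFPtotal and had 3.93 CPM in GFPlow 5 but 0.17 to 0.443 CPM in the other GFPlow libraries. On the log2 scale the fold change was 0.80 (SE 0.79, adjusted p = 0.634 by edgeR). Without GFPlow 5 it was 2.44 and passed the threshold (adjusted p = 0.0360 by edgeR). Hoxc6 and Hoxc8, trunk genes of the HoxC cluster, had fold changes of 0.73 (SE 0.87) and 0.80 (SE 0.85) with adjusted p of 0.703 and 0.663 by edgeR. In GFPtotal, Hoxc6 had 1.13 to 3.31 CPM and Hoxc8 0.356 to 3.26 CPM, and in GFPlow each was near 0 in some libraries and had its overall highest value in another (5.06 CPM in GFPlow 1 for Hoxc6 and 3.91 CPM in GFPlow 6 for Hoxc8). GFPlow 1 held 80 of the 129 GFPlow counts of Hoxc6, and without it the fold change was 1.81 (adjusted p = 0.257 by edgeR). GFPtotal 3, 4 and 5 had 2.93 to 3.31 CPM of Hoxc6 and GFPtotal 1, 2 and 6 had 1.13 to 2.05 CPM, and the fold change was 0.089 without the first 3. GFPlow 6 held 72 of the 101 GFPlow counts of Hoxc8, and without it the fold change was 2.16 (adjusted p = 0.162 by edgeR). Hoxd3 and Hoxd4 had fold changes of 0.13 (SE 0.54) and 0.32 (SE 0.48), both on exons of which more than 50% are shared. Thus the fold changes were above 0 in 3 of 4 tested HoxA, 1 of 1 HoxB, 3 of 3 HoxC and 2 of 6 HoxD genes, none called. Over all tested genes 7258 of 14523 were above 0. Without GFPtotal 3, 4 and 5 those of Hoxa9, Hoxa10, Hoxd3 and Hoxd4 fell below 0.

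**Figure D4:**
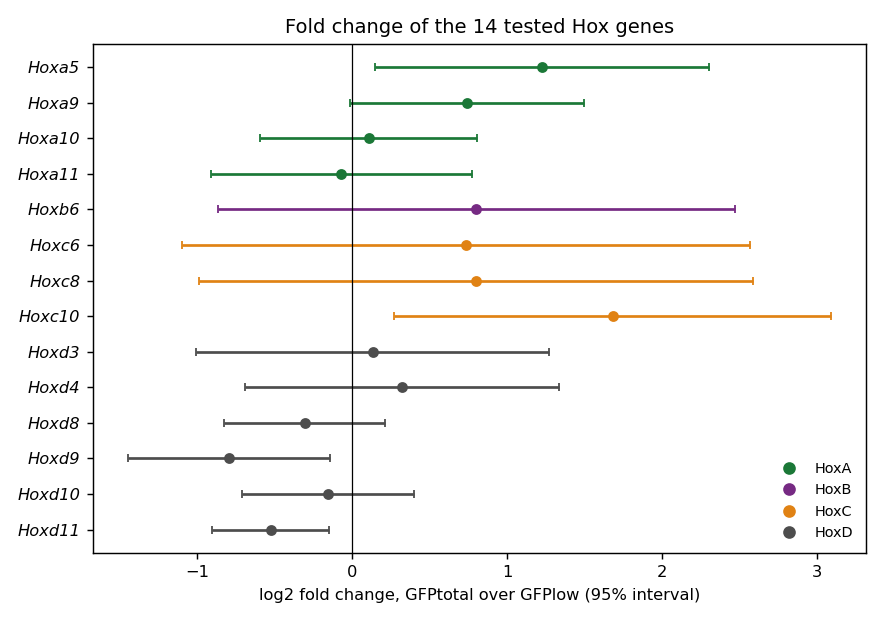
Log2 fold change of GFPtotal over GFPlow for the 14 tested Hox genes with 95% intervals from edgeR, coloured by cluster. The intervals of Hoxa5, Hoxc10, Hoxd9 and Hoxd11 leave out 0 before adjustment, and no gene passed after adjustment over 14523 genes.

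Among the untested HoxB genes, Hoxb4 had 114 counts in GFPtotal and 29 in GFPlow, and GFPtotal 1 and 4 alone held 42 and 57 of the GFPtotal counts. Hoxb5 had 90 counts in GFPtotal and 28 in GFPlow, of which GFPlow 5 held 24. Hoxb7 had 65 counts in GFPtotal and 15 in GFPlow, and Hoxb3 had 38 in GFPtotal and 11 in GFPlow. In the HoxC cluster, Hoxc9 had 87 counts in GFPtotal, 63 of them in GFPtotal 4, and 20 in GFPlow. Hoxc11 went the other way in its sums, with 17 counts in GFPtotal and 82 in GFPlow, of which GFPlow 2, 3 and 6 held 17, 23 and 39. Counts of such genes sat in a few libraries, so their group sums rest on those libraries. Among the untested HoxA genes, the GFPtotal and GFPlow counts were 112 and 67 for Hoxa3, 65 and 89 for Hoxa2, 50 and 97 for Hoxa4, 33 and 79 for Hoxa6, and 45 and 11 for Hoxa7. In GFPlow, Hoxa4 had 70 of its counts in GFPlow 5, Hoxa2 had 65 in GFPlow 1 and Hoxa6 had 46 in GFPlow 2. The last few were at the edge of detection, with GFPtotal and GFPlow counts of 28 and 16 for Hoxc4, 1 and 14 for Hoxb8, and 6 and 3 for Hoxb2.

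Between the outer Hox genes of the 4 clusters lie 46 other annotated genes, mostly noncoding. Of these, 8 were tested and 0 were called by edgeR, by DESeq2's Wald test or by limma-voom, and 0 had an unadjusted p below 0.05 with any of these tools. The most abundant was Hoxd3os1, an antisense gene that runs from Hoxd8 to the start of Hoxd4 and Hoxd3, with 22.0 ± 10.7 CPM in GFPtotal and 17.3 ± 6.86 CPM in GFPlow (log2 fold change 0.35, SE 0.35, adjusted p = 0.644 by edgeR). Gm27817, a short noncoding gene beside Hoxa11, had 12.6 ± 9.22 CPM in GFPtotal and 10.98 ± 7.52 CPM in GFPlow. Haglr, which starts beside Hoxd1, had 3.79 ± 2.53 CPM in GFPtotal and 3.26 ± 2.85 CPM in GFPlow. Hotair, the noncoding gene between Hoxc11 and Hoxc12 that has been tied to silencing of HoxD genes in human cells, had 1.62 ± 0.86 CPM in GFPtotal and 2.31 ± 1.54 CPM in GFPlow, with an adjusted p of 0.736 by edgeR (log2 fold change −0.51, SE 0.66). Hoxa11os, antisense to Hoxa11, had 1.63 ± 1.14 CPM in GFPtotal and 1.78 ± 0.981 CPM in GFPlow. The hosted microRNA genes Mir10a, Mir196a-1, Mir196a-2 and Mir615 had 0 counts, and Mir10b had 61 in GFPtotal and 78 in GFPlow. Mir196b also had 0 counts, but it lies wholly within exons of Hoxa9, so its 0 cannot be read as absence. Fragment counts over a hairpin gene are no measure of the mature microRNA.

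The cofactors with which Hox proteins bind DNA did include called genes. Of 37 listed regulators and cofactors, 30 were tested, 2 were called higher and 0 lower in GFPtotal. Both called genes are Meis genes, of the TALE class. Over all tested genes 4.55% were called higher, 0.854% lower, and in 3.66% the groups did not overlap in CPM. The list was not tested against these shares. Meis2 lay between 154 and 259 CPM in GFPtotal libraries and between 53.1 and 114 CPM in GFPlow libraries, with a mean of 201.8 ± 45.4 CPM in GFPtotal and 74.1 ± 21.8 CPM in GFPlow. Every GFPtotal library was above every GFPlow library. The log2 fold change was 1.44 (SE 0.20, adjusted p = 0.000376 by edgeR). For Meis1 the GFPtotal libraries lay between 96.6 and 176 CPM and the GFPlow libraries between 35.02 and 82.96 CPM, again with no overlap. The fold change was 1.31 on the log2 scale (SE 0.22, adjusted p = 0.00185 by edgeR). GFPlow 5 was the highest GFPlow library for both genes. Pericyte marker sums (923 to 1626 CPM in GFPtotal, against 8.87 to 19.9 CPM in GFPlow) and smooth muscle marker sums (186 to 389 CPM in GFPtotal, against 45.7 to 94.0 CPM in GFPlow) moved with these genes between the groups, and their part in the Meis values was not tested.

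Of the TALE cofactors, 8 were tested and 2 called, both of them the Meis genes above. Pknox1, another TALE gene and named after its values were seen, lay at 2.64 to 12.3 CPM in GFPtotal, against 7.66 to 22.9 CPM in GFPlow, with a log2 fold change of −1.12 (unadjusted p = 0.0138, adjusted p = 0.128 by edgeR). Of the trithorax side, which keeps Hox genes active (Kmt2a, Men1, Psip1 and others), 9 were tested and 0 called, with fold changes of −0.53 to 0.11. Of the Polycomb side, which keeps them silent (Ezh2, Suz12, Bmi1 and others), 11 were tested and 0 called, with fold changes of −0.42 to 2.10. At an unadjusted p below 0.05 the trithorax side held 1 gene (Kmt2b, −0.53) and the Polycomb side 2 (Cbx7, 2.10, and Phc1, 0.53, all 3 named after their values were seen). Over all tested genes the share below that limit was 19.9%, which neither 1 of 9 nor 2 of 11 exceeded. Cbx7 had 12.9 CPM in GFPtotal 4 and 0.0891 to 3.06 CPM in the other GFPtotal libraries, against 0.218 to 1.38 CPM in GFPlow, so its fold change rests largely on GFPtotal 4. The boundary factor Ctcf and geminin (Gmnn) were tested and not called. The caudal genes Cdx1, Cdx2 and Cdx4 had 0 counts, and Evx1 and Evx2, the neighbours of HoxA and HoxD, had 1 count each in 12 libraries.

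Since Hoxd11 had the highest level, a promoter window of this gene is shown, picked because it holds the Pbx and Hox site described here. RefSeq promoter windows (GRCm38.p6) were matched for 22 of 39 members, as 24 windows of 250 bases before a start site. The Meis site TGACAG, on either strand, was present in 2 of the 24 Hox windows and in 15.9% of 32851 windows of all genes. The Pbx and Hox site TGATTNAT, on either strand, was present in 2 of the 24 and in 2.82% of all windows. One of these is the window of the inner Hoxd11 start at chr2:74682073-74682322 on the plus strand, in which capitals mark that site and which holds 20 CG dinucleotides (median 12.5 in Hox windows and 6 in all windows).
Hoxd11: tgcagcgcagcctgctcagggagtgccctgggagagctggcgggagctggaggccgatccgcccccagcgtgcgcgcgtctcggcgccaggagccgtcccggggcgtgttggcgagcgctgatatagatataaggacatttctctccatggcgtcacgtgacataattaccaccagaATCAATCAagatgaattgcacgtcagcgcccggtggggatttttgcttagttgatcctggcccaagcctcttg
The printed window holds no TGACAG site. The window of the outer Hoxd11 start, at chr2:74679308-74679557, holds neither site and has 2 CG dinucleotides. A match of letters is a description, and nothing was measured on binding.

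Genes tied to Hoxa10 and Hoxa11 in mouse or human endometrium, or to Müllerian patterning, were taken as a list of 15. Of these 10 were tested, 0 were called higher and 2 lower in GFPtotal. Beside them, 4.55% of all tested genes were called higher and 0.854% lower, and in 3.66% the groups did not overlap in CPM. The list was not tested against these shares. Itgb3, the integrin beta subunit reported as a HOXA10 target in human endometrial cells, lay between 46.1 and 209 CPM in GFPtotal libraries and between 234 and 436 CPM in GFPlow libraries. All GFPtotal libraries were below all GFPlow libraries, with GFPtotal 3, 4 and 5 lowest at 46.1 to 84.4 CPM. The fold change was −1.29 on the log2 scale (SE 0.33, adjusted p = 0.0348 by edgeR), and −0.75 without those 3 libraries, where it was not called (adjusted p = 0.0520 by edgeR). The call was also lost without GFPtotal 4 or 5, without GFPlow 2, 3, 4 or 6 (−1.19, adjusted p = 0.0772 by edgeR, without GFPlow 6), and with no filter on low counts. Wnt4, a secreted ligand needed for Müllerian duct formation and decidualization in the mouse, lay between 1.93 and 6.96 CPM in GFPtotal and between 8.005 and 32.1 CPM in GFPlow, also without overlap. The fold change was −1.74 on the log2 scale (SE 0.41, adjusted p = 0.0181 by edgeR), and −1.36 without GFPtotal 3, 4 and 5, where it was not called (adjusted p = 0.199 by edgeR). Pgr, the progesterone receptor and the most abundant of the list, lay between 399.98 and 1629 CPM in GFPtotal and between 989 and 1449 CPM in GFPlow and was not called (−0.29, SE 0.36, adjusted p = 0.717 by edgeR). Ptger3, named after its values were seen, had 239 counts in 5 of 6 GFPtotal libraries and 0 in GFPlow, and was not tested because of its low counts.

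**Figure D5:**
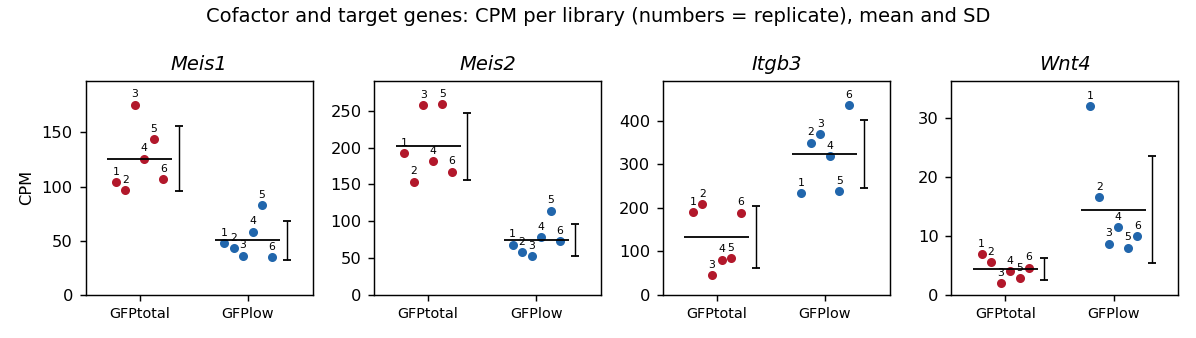
CPM per library (numbers are replicate numbers) of the Hox cofactor genes Meis1 and Meis2 and of Itgb3 and Wnt4, GFPtotal left in red and GFPlow right in blue, with group mean and SD. Meis1 and Meis2 are higher in all GFPtotal libraries (means of 125.5 and 201.8 CPM, against 50.6 and 74.1 CPM in GFPlow), and Itgb3 and Wnt4 are lower in all of them.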

How the data were processed

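The deposited values are raw counts per gene; the authors counted paired fragments over exons with featureCounts 1.6.4, without strand, at a mapping quality of at least 10, against Ensembl 84 on GRCm38, per the file headers. Cutadapt and SAMtools were used per the submitters' processing notes, and no aligner is named (not given in the sources used here). For 12 of 12 libraries the single files and the series table hold equal counts, and 0 columns of that table lack a sample. Library names are of a TruSeq DNA Nano preparation on 4 HiSeq lanes, per the labels.

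From the counts, genes were kept with filterByExpr, scaled with TMM factors and tested with edgeR 4.0.16 (R 4.3.3, quasi-likelihood F test, robust, no covariate), GFPtotal minus GFPlow. P-values are two-sided and adjusted by Benjamini-Hochberg over 14523 genes, with 0.05 as the threshold. The SE is the size of the fold change over the square root of F. The CPM uses TMM-scaled library sizes, and FPKM divides it by exon length. DESeq2 1.42.0 and limma 3.58.1 were alternatives, and the fit was tested on simulated data. No 2 libraries agreed within sampling noise (chi-square per degree of freedom at least 21.3 in GFPtotal and 27.5 in GFPlow).

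Named in full were called members, the 3 highest by FPKM in each cluster, Hoxa9 to Hoxa13 and Hoxd9 to Hoxd13 as the Müllerian set, members whose groups do not overlap, the 5 most abundant other cluster genes, and the called and the most abundant genes of the regulator and target lists. Some items these rules reach are not reported here. The members, lists and tests were chosen with earlier results of these data known.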

Additional observations from a re-analysis of the deposited data

Results flagged for a closer look

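In 64 groups of 6 libraries (tested and named Hox genes, cluster sums, and the most abundant other cluster genes and called cofactor and target genes), the gap of the highest or lowest library to its nearest neighbour was set against the range of the group, and 9 groups had a library set far apart. The limit used flags about 1 in 20 groups of independent, normally spread values. Low CPM values are bounded at 0 and some groups share genes, so 9 of 64 cannot be set against that rate. All 9 were GFPlow libraries that stood above the rest. GFPlow 5 had 3.93 CPM of Hoxb6, where the next GFPlow library had 0.443 CPM, and 2.74 FPKM summed over HoxB, where the next had 0.793. GFPlow 1 had 32.1 CPM of Wnt4 (next 16.6), 25.3 CPM of Gm27817 (next 12.2) and 8.60 CPM of Haglr (next 3.56). GFPlow 6 had 3.91 CPM of Hoxc8 (next 0.943). GFPlow 3 had 3.71 CPM of Hoxa11os (next 1.71). GFPlow 2 had 0.848 CPM of Hoxb4 (next 0.314) and GFPlow 4 had 0.59 CPM of Hoxb7 (next 0.19).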

How the results depend on the processing

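The number of Hox members called was 0 higher and 0 lower with DESeq2 size factors, total library size, DESeq2's Wald test, no filter on low counts and no mitochondrial genes. It was 1 higher with limma-voom (Hoxc10), 0 to 1 higher when single libraries were left out (Hoxb6 without GFPlow 5) and 0 to 1 lower (Hoxd11 without GFPlow 6). Without GFPtotal 3, 4 and 5, a setting chosen after seeing the data, it was 0 in both directions. The median log2 fold change of the tested members, 0.23, was 0.73 with no filter, which tests 34 members, and −0.32 without GFPtotal 3, 4 and 5. Without those 3 libraries Hoxa9 was −0.10, Hoxa10 −0.57, Hoxd3 −0.49 and Hoxd4 −0.17, each with the opposite sign to the full fit and not called in either. Hoxa11 was 0.036 with limma-voom. Ranges over single libraries left out crossed 0 for Hoxa10 (−0.20 to 0.27), Hoxa11 (−0.33 to 0.067), Hoxd3 (−0.27 to 0.40) and Hoxd10 (−0.32 to 0.044). The cause of these shifts was not tested. Meis1 and Meis2 were called in 21 of 21 settings, and the regulator list kept 2 higher and 0 lower. Of the other cluster genes, 1 was called higher without GFPlow 5 (Hoxaas2, antisense to Hoxa3) and 0 in the other settings. The target list, whose alternatives were chosen after seeing the data, had 1 higher with DESeq2's Wald test (Cdkn1a) and 1 with no filter (Ptger3); it had 1 lower with no filter, 1 to 2 lower with single libraries left out, and 0 without GFPtotal 3, 4 and 5. In a fit with the replicate number as a block, 0 Hox members were called in either direction, the median was 0.18 and Hoxa10 was −0.025. Whether same-numbered libraries pair is not given by any label. Their deviations from the group means correlated at −0.139 to 0.0892, and 2 of 6 matched their own number best. This cannot decide on pairing, because the split of GFPtotal 3, 4 and 5 from the other GFPtotal libraries also enters these deviations. Another filter (10 counts in 6 libraries) kept 15 members, and the first 10 genes by level were the same 10 with medians or nuclear totals. Depth limits the 25 untested members, each of which averaged at most 1.30 CPM in a group.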
